A study of Macaca mulatta with 13 samples.

Results

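The cells described here are rhesus macaque colon CD8 T cells that carried RNA for granzyme B (GZMB) but none for ITGAE or GZMK. They were chosen by their counts of unique molecular identifiers (UMIs, each standing for 1 captured RNA molecule). A cell had to hold at least 3 UMIs of CD3D, CD3E and CD3G together, more than of the B cell genes MS4A1 and CD79A, and under 1% of its UMIs from JCHAIN. It also had to hold at least 1 CD8A UMI, no CD4, ITGAE or GZMK UMI, and at least 3 GZMB UMIs. The rule found 663 cells, called GZMB CD8 cells below, among 3720 gated CD8 T cells, 11521 gated T cells and 20567 leukocytes in 12 libraries. They made up 17.8% of the gated CD8 T cells (95% exact binomial interval 16.6 to 19.1%), and the other 3057 CD8 T cells served for comparison.

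The study sequenced single live CD45+ colon cells from macaques used to model acute GVHD (graft-versus-host disease), with 4 samples from animals that had received an allogeneic haematopoietic cell transplant and 4 from healthy animals that had not. The 13 libraries are labelled as combined host and donor cells (3), as a donor fraction (2), as a host fraction (4) or as healthy control (4). Host and donor fractions were sorted by the MHC molecule MAMU-A001, and the sorted samples were also negative for an intravascular CD45 stain, which marks cells inside blood vessels. The labels give no age, sex or drug treatment of the animals. The files number the libraries 1 to 13 without naming their labels, so the groups used below were inferred from the order of the labels: 10, 12 and 13 combined, 2 and 5 donor, 1, 6 and 7 host, and 3, 8, 9 and 11 healthy. Library 4, which shared 5323 barcodes with library 6, was left out. Libraries 4 and 6 stand where the labels repeat 1 host number, and the 20 other pairs among libraries 1 to 7 shared 6 to 55 barcodes, pairs among libraries 8 to 13 shared 1 to 10, and pairs between these sets shared 0 to 3. Because the groups are inferred and several libraries can come from 1 animal, groups are described per library with no test. P-values below compare kinds of cell inside each library. They rest on how that difference varied between libraries, which cannot be taken as separate animals.

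Cytotoxic CD8 T cells kill their targets by releasing granules. Perforin, encoded by PRF1, opens the target's membrane to granzymes, proteases that start its death, and granulysin (GNLY) and NKG7 are further granule-associated proteins. ITGAE encodes CD103, the integrin chain that binds epithelial E-cadherin and marks many resident T cells of the gut lining, and GZMK encodes another granzyme that marks a separate set of memory and effector CD8 T cells. In GVHD, donor T cells recognise host tissue as foreign, and the intestine is one of the organs they injure.

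GZMB was chosen for, so its level is given only as a description. The median GZMB CD8 cell held 12 GZMB UMIs, with a 10th to 90th percentile range of 3 to 56 and a highest value of 545. At the edge of the rule, 69 cells held exactly 3 GZMB UMIs and were kept, while 81 cells with 2 and 152 with 1 were left out. Among CD8 T cells with at least 3 GZMB UMIs, 644 also held ITGAE but no GZMK, 328 held GZMK but no ITGAE, and a further 213 held both. Of the cells left out for ITGAE alone, 400 held only 1 ITGAE UMI, and of those left out for GZMK alone, 48 held only 1 GZMK UMI. A cell without a UMI can still carry the RNA at a level too low to be captured, so the boundary to these cells is one of detection.

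The label was checked against genes that the rule did not use. TRAC, the constant part of the T cell receptor alpha chain, stood at 979 CPM (counts scaled to a total of 1000000 UMIs) in the summed GZMB CD8 cells and at 1046 CPM in the other CD8 T cells. CD2 stood at 246 CPM in the GZMB CD8 cells and 265 CPM in the others. PRF1 was found at 190 CPM in the GZMB CD8 cells and 176 CPM in the others. Over all libraries, 25.04% of the GZMB CD8 cells held a PRF1 UMI, against 21.0% of the others. By library this percentage was higher in the GZMB CD8 cells of libraries 1, 2, 9, 11 and 12. It was lower in those of libraries 3, 5, 8, 10 and 13, so PRF1 did not set these cells apart in every library. CD8B was low in both, at 27.4 CPM in GZMB CD8 cells and 26.6 CPM in the others, so the CD8 call rested on CD8A, and 298 of the 663 cells held a single CD8A UMI. Of the markers of natural killer and innate lymphoid cells, KLRF1 was at 0 in the GZMB CD8 cells and 0.701 CPM in the others. NCR1 stood at 5.398 CPM in the GZMB CD8 cells and 2.63 CPM in the others, and TYROBP at 68.1 and 60.8 CPM in the same order of cells. NCAM1 stood at 13.7 and 9.73 CPM, FCER1G at 3.74 and 2.28 CPM, and KIT at 4.57 and 2.02 CPM, again in that order. Summed, these 6 markers stood at 204, 92.8, 83.3 and 21.2 CPM in the GZMB CD8 cells of libraries 1, 2, 12 and 13. In the others of these libraries they stood at 130, 57.0, 108 and 11.5 CPM. TRGC2, a gamma delta receptor constant gene, stood at 7.47 CPM in the GZMB CD8 cells and 6.49 CPM in the others.

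The GZMB CD8 cells were about as deeply sampled as the others. Their median was 3337 UMIs and 1212 genes per cell, against 3319 UMIs and 1155 genes in the other CD8 T cells. As a measure of free RNA in the droplets, 5 of 2678 B cells held at least 3 GZMB UMIs, a share of 0.187% (0.0607 to 0.435%), at a median of 3566.5 UMIs. Most of these B cells came from healthy libraries: the tested libraries 1, 2, 12 and 13 held 10, 67, 92 and 48, of which 0, 0, 0 and 1 held that many, with upper limits of 30.8%, 5.36%, 3.93% and 11.1%, so the background in those libraries is bounded only loosely. In the 4 libraries used for testing, summed levels of 6 myeloid markers spanned 2.81 to 2577 CPM in the GZMB CD8 cells and 2.36 to 2346 CPM in the others. The high value came from library 1, where 1 GZMB CD8 cell held 206 of the 208 LYZ UMIs, 369 of the 373 S100A8 UMIs and 93 HLA-DRA UMIs beside 8 CD3D and 7 GZMB UMIs. Epithelial markers spanned 2.81 to 303 CPM in the GZMB CD8 cells and 4.73 to 238 CPM in the others. B cell markers outside the rule spanned 0 to 47.8 CPM in the GZMB CD8 cells and 3.70 to 23.0 CPM in the others.

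GZMB CD8 cells took a larger share of the CD8 T cells in the combined GVHD libraries than in every healthy library. The share was 37.3% in library 10 (19 of 51 cells), 25.3% in library 12 (324 of 1283) and 23.3% in library 13 (84 of 361). In the healthy libraries it was 6.67% in library 3 (2 of 30 cells), 5.36% in library 8 (9 of 168), 7.02% in library 9 (16 of 228) and 5.70% in library 11 (15 of 263). The combined and healthy ranges did not overlap, and none of the exact intervals of the 3 combined libraries reached down to the interval of a healthy library from the same barcode set. The donor libraries lay between, at 11.9% in library 2 (97 of 817) and 9.68% in library 5 (15 of 155). The host library 1 held 22.7% (82 of 361), while host library 6 had 3 CD8 T cells and library 7 had none, and neither held a GZMB CD8 cell. Of the 663 cells, 324 came from library 12, without which the share over all libraries was 13.9%.

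The order of the groups depended on how the share was counted. When each cell was thinned to 1500 UMIs before the rule was applied, the share was 33.3%, 31.5% and 24.1% in combined libraries 10, 12 and 13. After thinning it was 5.80%, 9.43% and 3.57% in healthy libraries 8, 9 and 11, and 0 of 10 cells in healthy library 3, which allows a share of up to 30.9%. Thinned donor shares were 20.2% in library 2 and 23.1% in library 5, beside 20.1% in host library 1, so the donor values were then at or above the host value. Thinning removes UMIs of ITGAE and GZMK as well as of GZMB, and GZMK was found in 49.1% and 76.1% of the CD8 T cells of donor libraries 2 and 5, against 8.03% in host library 1. Counting every CD8 T cell with at least 3 GZMB UMIs, whatever its ITGAE or GZMK, gave 66.7%, 54.2% and 46.0% in combined libraries 10, 12 and 13, 65.2% and 95.5% in donor libraries 2 and 5, and 41.8% in host library 1. The same count gave 6.67%, 16.1%, 13.6% and 22.4% in healthy libraries 3, 8, 9 and 11. As a share of all gated T cells, GZMB CD8 cells made up 16.4%, 14.8% and 10.97% in the combined libraries, 4.56% and 2.69% in the donor libraries, 4.99% in host library 1, and 0.412%, 1.45%, 1.18% and 0.922% in the healthy libraries. A share cannot tell more GZMB CD8 cells from fewer CD8 T cells of other kinds.

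**Figure D1:**
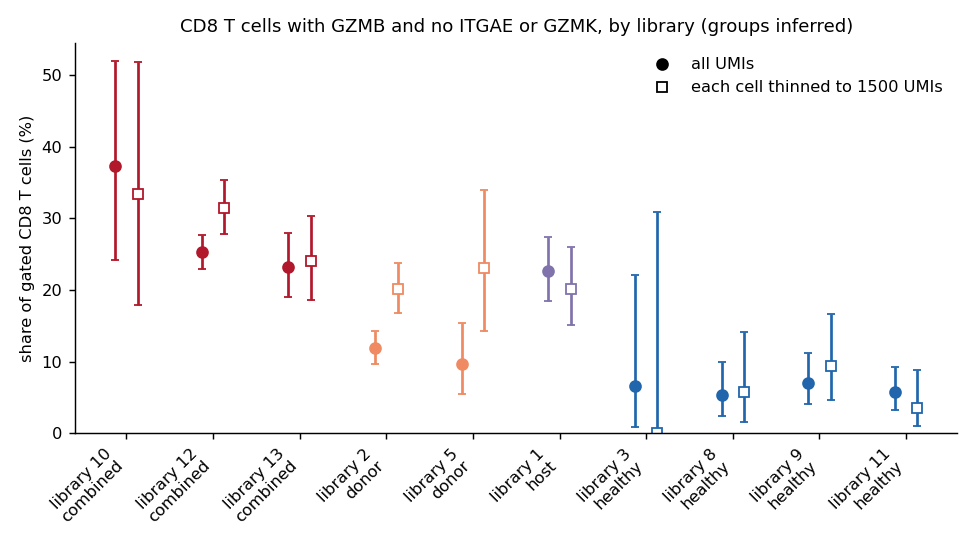
Share of gated CD8 T cells that met the rule, in percent, for each library with at least 10 such cells to count, by inferred group; filled circles use all UMIs, open squares use cells thinned to 1500 UMIs, and bars are 95% exact binomial intervals that cover counting error only. Combined libraries stood at 23.3 to 37.3% with all UMIs and healthy libraries at 5.36 to 7.02%, while the donor libraries moved up to 20.2 and 23.1% after thinning.

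To ask what else marks these cells, their summed counts were compared with those of all other gated CD8 T cells inside each library. Libraries 1, 2, 12 and 13 had at least 20 cells of both kinds, with 587 GZMB CD8 cells and 2235 others. By the inferred groups these are host, donor, combined and combined libraries. No healthy library entered this fit or the main fits of the later comparisons, so the calls were not tested in healthy animals. With edgeR's quasi-likelihood test, library as a block and Benjamini-Hochberg adjustment over 5969 genes, 2 genes were higher in the GZMB CD8 cells (0.0335% of those tested) and 1 was lower (0.0168%). At an unadjusted p under 0.05, 145 genes were higher and 170 lower (2.43% and 2.85%). The genes of the rule were left out of the adjustment and are not counted.

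SPINK2, which encodes a Kazal-type serine protease inhibitor, was higher in the GZMB CD8 cells. In libraries 1, 2, 12 and 13 it stood at 838, 259, 1145 and 678 CPM in the GZMB CD8 cells, against 459, 133, 755 and 598 CPM in the other CD8 T cells of the same libraries. It was higher in 4 of 4 libraries, by 0.62 ± 0.10 on the log2 scale (standard error, edgeR adjusted p = 0.0222), and 79.3% of GZMB CD8 cells held a SPINK2 UMI, against 52.8% of the others. HOPX, a homeodomain protein without DNA-binding activity that is found in differentiated effector and memory T cells, was also higher. It stood at 653, 925, 695 and 792 CPM in the GZMB CD8 cells, against 502, 606, 492 and 577 CPM in the others, and the 2 sets of values did not overlap. Its difference was 0.46 ± 0.08 (log2, standard error, edgeR adjusted p = 0.0264), and 83.7% of GZMB CD8 cells held a HOPX UMI, against 65.5% of the others.

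STMN1, which encodes the microtubule regulator stathmin and rises in dividing lymphocytes, was lower in the GZMB CD8 cells. It stood at 54.1, 225, 40.1 and 55.1 CPM in the GZMB CD8 cells of libraries 1, 2, 12 and 13, against 119, 343, 75.4 and 349.5 CPM in the others. The difference was -1.17 ± 0.19 (log2, standard error, edgeR adjusted p = 0.0222), with 4 of 4 libraries lower and the widest gap in library 13. Of the 13 genes of the cell division list that were tested, 12 had negative values and STMN1 alone passed, with a list median of -0.43 against -0.01 over all genes tested. Among those that did not pass, HMGB2, a chromatin protein abundant in cycling cells, was at -0.40 ± 0.12 (adjusted p = 0.498) and the DNA untangling enzyme TOP2A at -1.58 ± 0.49 (adjusted p = 0.506). TOP2A UMIs were found in 1.21% of GZMB CD8 cells and 3.47% of the others.

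These 3 calls depended on which libraries and cells entered. None was made without library 2, without library 13 (0 higher and 0 lower each time), or with cells of at least 3000 UMIs. Without library 1, 3 genes were higher and 13 lower, and without library 12, 13 were higher and 2 lower. When cells with an MKI67 or TOP2A UMI were removed from both kinds, no gene passed: HOPX at 0.47 and SPINK2 at 0.66 (log2) kept their size but were each at an adjusted p of 0.0502, while STMN1 moved to -0.35 (adjusted p = 0.883). Over all 18 settings run, the lowest log2 value was 0.38 for HOPX and 0.50 for SPINK2.

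**Figure D2:**
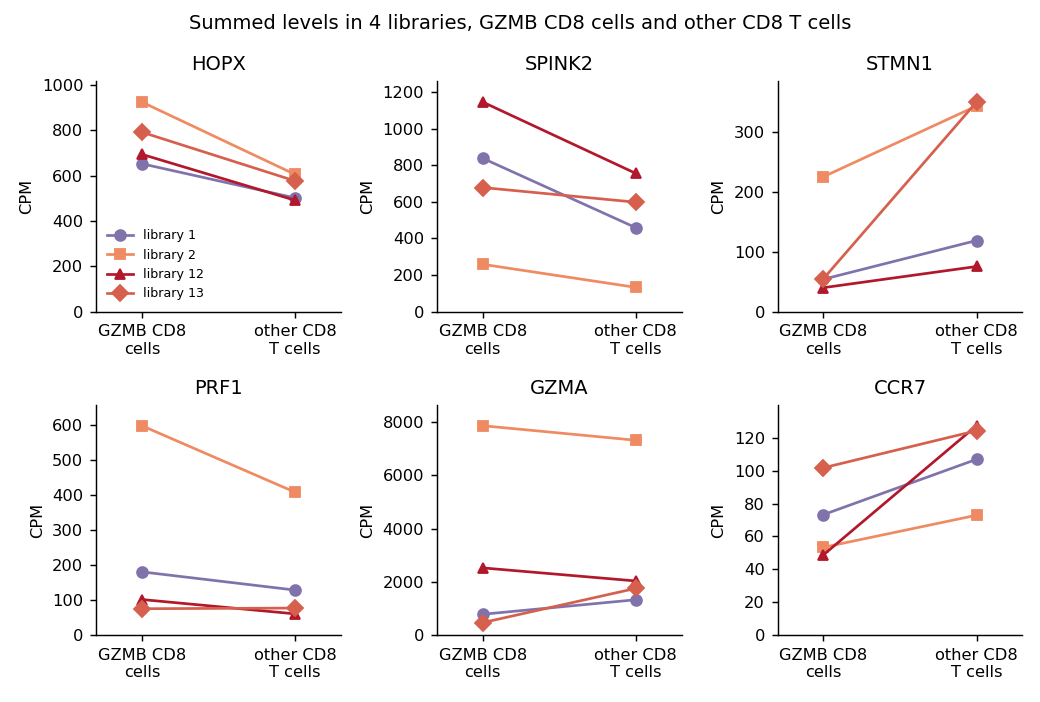
Summed levels (CPM) of 6 genes in the GZMB CD8 cells (left) and the other CD8 T cells (right) of libraries 1, 2, 12 and 13, each line 1 library. HOPX and SPINK2 were higher in GZMB CD8 cells and STMN1 lower in 4 of 4 libraries and passed the test; PRF1, GZMA and CCR7 are shown for their size and did not pass.

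Against all other CD8 T cells, none of the 16 tested genes of the cytotoxic granule list passed, 9 were positive and 7 negative, and the median was 0.02. PRF1 was at 0.48 ± 0.12 (edgeR adjusted p = 0.241) and higher in 3 of 4 libraries, while GNLY was at 0.14 ± 0.07 and NKG7 at 0.14 ± 0.09 (adjusted p = 0.946 for both). GZMA, which encodes a tryptase-like granzyme, was at -0.47 ± 0.20 (adjusted p = 0.876) and split between libraries. It stood at 793, 7864, 2532 and 479 CPM in the GZMB CD8 cells of libraries 1, 2, 12 and 13, against 1337, 7319, 2042 and 1763 CPM in the others. Library 2 was high and library 13 low in the GZMB CD8 cells, a wider gap than that between the kinds of cell in any of these libraries. CTSW, encoding the protease cathepsin W of cytotoxic lymphocytes, was at -1.58 ± 0.35 (adjusted p = 0.159). It lay between -2.16 and -1.29 over 14 settings and passed in 4, with the lowest adjusted p, 1.1e-05, without a low-count filter.

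Other lists also gave values without calls. All 6 tested inhibitory receptor genes were positive (median 0.15), and all 4 tested chemokine receptors were negative (median -0.34). Of those receptors, CCR7, which leads T cells into lymph nodes, was at -0.85 ± 0.17 and lower in 4 of 4 libraries (edgeR adjusted p = 0.109). IL2RA, the alpha chain of the high-affinity interleukin 2 receptor, was at 0.61 ± 0.14 and higher in 4 of 4 libraries (adjusted p = 0.171). The tissue residency list had 10 positive and 5 negative values of 15 (median 0.09), the interferon-stimulated list 5 and 6 of 11 (median -0.01), and the glycolysis list 7 and 5 of 12 (median 0.04). With 4 libraries, an adjusted p above 0.05 does not show that these genes were alike in both kinds of cell.

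The other CD8 T cells mix cells with fewer than 3 GZMB UMIs and cells that hold at least 3 together with ITGAE or GZMK. A set of each was therefore also compared alone with the same 587 GZMB CD8 cells, which the comparisons share. The first comparison took the 720 CD8 T cells of the same 4 libraries that also had no ITGAE or GZMK UMI and 0 to 2 GZMB UMIs. They are called low-GZMB cells below. Of 3823 genes tested, 28 were higher in the GZMB CD8 cells (0.732%) and 4 lower (0.105%) by the same edgeR test. At an unadjusted p under 0.05, 211 were higher and 249 lower (5.52% and 6.51%). The higher genes included 4 of 14 cytotoxic granule genes, 2 of 5 chemokines, 3 of 6 inhibitory receptors and 1 of 4 cytokines, and no gene of these lists was lower. The list medians were 0.22, 1.03, 0.69 and 0.27, against -0.00 over all genes tested.

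GZMA showed the largest difference of the genes that passed. It stood at 793, 7864, 2532 and 479 CPM in the GZMB CD8 cells of libraries 1, 2, 12 and 13, against 4.48, 168, 44.3 and 3.44 CPM in the low-GZMB cells. The log2 difference was 5.70 ± 0.18 (standard error, edgeR adjusted p = 1.1e-12), and the 2 sets of values did not overlap. In library 1 the comparison cells held 2 GZMA UMIs in all and in library 13 only 1, so the ratios there rest on few molecules. PRF1 stood at 182, 599, 103 and 76.3 CPM in the GZMB CD8 cells, against 40.3, 32.4, 21.2 and 6.88 CPM in the low-GZMB cells, a difference of 2.89 ± 0.25 (adjusted p = 2.5e-06). GNLY was higher by 0.72 ± 0.16 (adjusted p = 0.0385) and NKG7 by 0.70 ± 0.13 (adjusted p = 0.0105). Of the remaining granule genes, GZMM did not pass and was at -0.51 ± 0.25 (adjusted p = 0.435).

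Some secreted factors were higher too. IFNG, encoding interferon gamma, stood at 127, 188, 259.5 and 119 CPM in the GZMB CD8 cells of libraries 1, 2, 12 and 13, against 26.9, 19.1, 64.6 and 30.9 CPM in the low-GZMB cells. It was higher by 2.19 ± 0.19 (log2, standard error, edgeR adjusted p = 2.1e-06), and every value of the GZMB CD8 cells exceeded every value of the low-GZMB cells. CCL3, a chemokine that draws leukocytes to inflamed tissue, was at 331, 495, 299.6 and 55.1 CPM in the GZMB CD8 cells, against 78.4, 28.6, 191 and 3.44 CPM in the low-GZMB cells. In library 1 a single cell held 52 of the 104 CCL3 UMIs of the GZMB CD8 cells, and in library 13 a single cell held 7 of 13. The CCL3 difference was 1.80 ± 0.34 (adjusted p = 0.0130) with overlapping values between libraries, and CCL4L1, of the same family, was higher by 1.40 ± 0.21 (adjusted p = 0.00187). CCL3 and CCL4L1 belong to a family of near-identical copies, so their reads may be split between copies. CCL5 did not pass, at 0.20 ± 0.22 (adjusted p = 0.804). TNFSF14, the ligand LIGHT, passed at 1.02 ± 0.21 (adjusted p = 0.0258) though it was higher in only 3 of 4 libraries.

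Of 6 tested inhibitory receptor genes 3 were higher, and of 6 cytokine receptor genes 1 was, while none of 9 costimulation and activation genes passed. LAG3, an inhibitory receptor for MHC class II, stood at 334, 608, 136 and 144 CPM in the GZMB CD8 cells, against 125, 185, 113 and 92.8 CPM in the low-GZMB cells, a difference of 0.94 ± 0.19 (edgeR adjusted p = 0.0173). ENTPD1, which encodes the ATP-degrading enzyme CD39, was higher by 0.83 ± 0.17 (adjusted p = 0.0272), and IL2RA by 0.85 ± 0.19 (adjusted p = 0.0406), each in 4 of 4 libraries. CTLA4 passed at 1.15 ± 0.25 (adjusted p = 0.0313) but was higher in only 2 of 4 libraries. It stood at 147, 394, 8.01 and 4.24 CPM in the GZMB CD8 cells of libraries 1, 2, 12 and 13, against 40.3, 149, 9.74 and 6.88 CPM in the low-GZMB cells. The difference was thus in the sorted host and donor libraries, and library was not tested as a modifier.

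HOPX and SPINK2 were again among the higher genes, by 1.04 ± 0.18 (edgeR adjusted p = 0.00638) and 1.22 ± 0.18 (adjusted p = 0.00158). Outside the lists, CGA, which encodes the alpha chain shared by pituitary and placental glycoprotein hormones, was higher by 1.85 ± 0.11 (adjusted p = 2.2e-08). CGA stood at 277, 579, 576 and 1339 CPM in the GZMB CD8 cells of libraries 1, 2, 12 and 13, against 58.3, 149, 158 and 375 CPM in the low-GZMB cells. It was carried by 12.1% of all GZMB CD8 cells, and in library 13 a single cell held 189 of its 316 UMIs. In healthy libraries 8 and 9, outside the fit, the order was the other way, at 0 and 22.9 CPM of CGA in the GZMB CD8 cells against 455 and 271 CPM in the low-GZMB cells. PERP (1.48 ± 0.31), the membrane lipid scramblase PLSCR1 (1.21 ± 0.25), the transporter chaperone EMB (1.08 ± 0.16), the actin-severing protein GSN (1.06 ± 0.20), the proprotein convertase FURIN (0.85 ± 0.16) and the actin crosslinker ACTN4 (0.81 ± 0.16) were higher in 4 of 4 libraries. The signal peptidase subunit SEC11C, the calcium-binding protein S100A4 and the glycolytic enzyme TPI1 were higher by 0.73, 0.67 and 0.51. SEC11C, S100A4 and ACTN4 were named after their values were seen. The other 4 higher genes carry no symbol in the files or tables read here.

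The 4 lower genes were CCR7, DUSP2, MAGEH1 and FKBP5. CCR7 stood at 73.3, 53.4, 48.9 and 102 CPM in the GZMB CD8 cells of libraries 1, 2, 12 and 13, against 139, 177, 205 and 189 CPM in the low-GZMB cells. The 2 sets did not overlap, and the difference was -1.62 ± 0.20 (log2, standard error, edgeR adjusted p = 0.000159). DUSP2, a phosphatase that switches off MAP kinases, was at -1.51 ± 0.25 (adjusted p = 0.00471). It was at 54.1, 92.8, 12.02 and 25.4 CPM in the GZMB CD8 cells and at 76.2, 215, 66.4 and 55.0 CPM in the low-GZMB cells. MAGEH1 was at -1.31 ± 0.22, and FKBP5, a steroid receptor co-chaperone induced by glucocorticoids, at -0.71 ± 0.13. STMN1, which was lower against CD8 T cells at large, was at 0.10 ± 0.20 here (adjusted p = 0.930).

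Leaving out a library moved these counts. Without library 2, 6 genes were higher and 0 lower, the named ones being GZMA, PRF1, IFNG, SPINK2 and CGA, and without library 12, 51 were higher and 12 lower. Without library 1 and without library 13, 19 were higher each time, with 9 and 6 lower. Cells of at least 3000 UMIs, available in 3 libraries, gave 6 higher genes, and cells thinned to 1500 UMIs gave 14 higher and 3 lower.

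**Figure D3:**
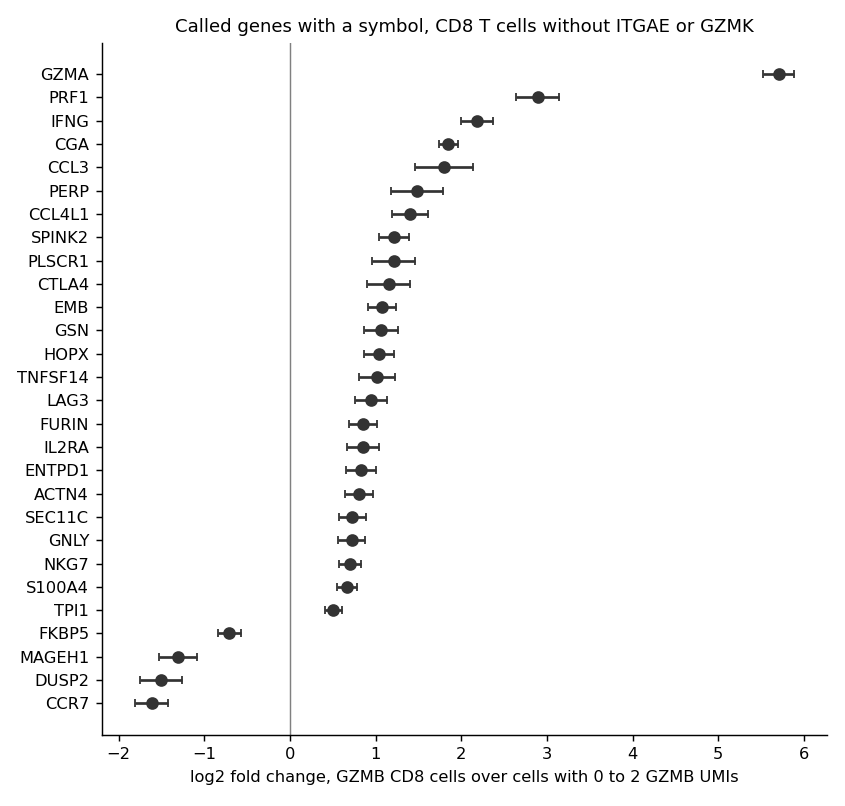
Log2 fold change of the 28 genes with a symbol that passed the test between GZMB CD8 cells and CD8 T cells with 0 to 2 GZMB UMIs, both without ITGAE or GZMK; points are edgeR estimates over 4 libraries and bars are standard errors. GZMA stood at 5.70 and PRF1 at 2.89, and CCR7 was the lowest at -1.62.

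Summed over libraries, GZMA, PRF1 and IFNG were higher in each bin of cells with more GZMB. Among the CD8 T cells without ITGAE or GZMK, summed GZMA was 39.5 CPM in the 831 cells with 0 GZMB UMIs, 74.2 CPM in the 233 cells with 1 or 2, and 345 CPM in the 282 cells with 3 to 9. It was 1181 CPM in the 224 cells with 10 to 29 GZMB UMIs and 10524 CPM in the 157 cells with 30 or more. PRF1 took the values 16.4, 30.7, 65.5, 123 and 445 CPM over the same 5 bins, and IFNG 40.6, 64.003, 109, 218 and 321 CPM. In library 13 IFNG broke this order, at 196 CPM in the bin of 10 to 29 GZMB UMIs and 145 CPM in the top bin. Other breaks lay at low values. From the bin of 1 or 2 to that of 3 to 9, IFNG went from 38.2 to 35.8 CPM in library 1. PRF1 went from 8.56 to 7.998 CPM between these bins in library 13. GZMA was 5.85 and 5.75 CPM at 0 GZMB UMIs in libraries 1 and 13, and 0 CPM at 1 or 2. Libraries 2 and 12 kept the order for all 3 genes. In each of libraries 1, 2, 12 and 13, GZMA and PRF1 were highest in the top bin, where GZMA reached 2459, 16265, 7585 and 3168 CPM. Library 13 held 10 cells in the top bin, and its GZMA was 24.0 and 13.1 CPM in the bins of 3 to 9 and 10 to 29 GZMB UMIs. In that library 1 cell held 65 of the 113 GZMA UMIs of the GZMB CD8 cells.

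Not every gene of cytotoxic cells followed. GNLY stood at 1199.6, 2239, 2243, 3036 and 5166 CPM over the bins, but in library 1 it was 2025 CPM at 0 GZMB UMIs and 1592 CPM at 3 to 9. CCL5 was higher in each higher bin in libraries 2 and 12, while in library 1 it was 2672 CPM at 0 GZMB UMIs and 1279 CPM at 30 or more. IL7R, the interleukin 7 receptor chain of long-lived T cells, was 1489, 1368, 1583, 1385 and 665 CPM over the bins. In libraries 1, 2 and 12 its lowest bin was the one with 30 or more GZMB UMIs. Median depth was 3054 UMIs per cell at 0 GZMB UMIs and 3655 at 30 or more. These bins share cells with the test above and are a description of the same cells.

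**Figure D4:**
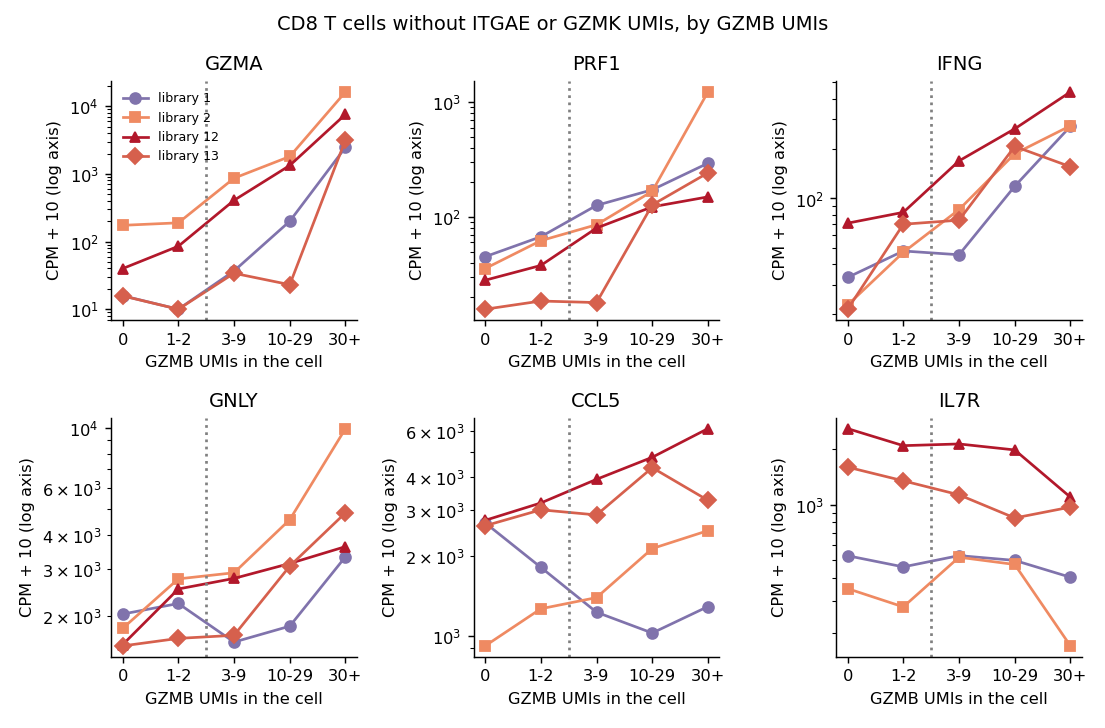
Level (CPM plus 10, log axis) of 6 genes in CD8 T cells without ITGAE or GZMK UMIs, by the number of GZMB UMIs in the cell, each line 1 library; the dotted line marks the threshold of 3 UMIs. GZMA and PRF1 were highest in the top bin of each of the 4 libraries, while CCL5 in library 1 and IL7R in libraries 1, 2 and 12 did not follow GZMB upward.

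The last comparison took the other CD8 T cells with at least 3 GZMB UMIs, which differed by holding ITGAE, GZMK or both. It was chosen after the data were seen, and it set the 587 GZMB CD8 cells against 958 cells of the same 4 libraries. No gene of 3458 was higher in the GZMB CD8 cells (0%) and 2 were lower (0.0578%) by edgeR's test, and 135 were higher and 135 lower at an unadjusted p under 0.05 (3.9% each). HOPX and SPINK2, called higher in both earlier comparisons, were thus not called by edgeR against these cells. DESeq2 gave 6 higher and 8 lower. The 2 lower genes encode cytoplasmic actins. ACTG1 stood at 1468, 2391, 1678 and 2093 CPM in the GZMB CD8 cells of libraries 1, 2, 12 and 13, against 1925, 3698, 2223 and 3956 CPM in the cells with ITGAE or GZMK. Its difference was -0.57 ± 0.08 (log2, standard error, edgeR adjusted p = 0.0172), and that of ACTB was -0.36 ± 0.05 (adjusted p = 0.0172), each lower in 4 of 4 libraries.

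None of 14 tested cytotoxic granule genes passed, with 5 positive and 9 negative values and a median of -0.12. GZMA stood at 793, 7864, 2532 and 479 CPM in the GZMB CD8 cells, against 4396, 11543, 4608 and 4746 CPM in the cells with ITGAE or GZMK. The GZMA difference was -1.65 ± 0.33 and lower in 4 of 4 libraries (edgeR adjusted p = 0.102), with library 2 closest between the kinds and library 13 farthest apart. It passed in 5 of 13 settings, with values of -2.08 to -1.11 over all of them. GNLY was at -0.30 ± 0.08 (adjusted p = 0.263) and PRF1 at -0.41 ± 0.16 (adjusted p = 0.552), both lower in 4 of 4 libraries. All 8 tested cell division genes were negative (median -0.74 against 0.00 over all genes tested), with STMN1 at -1.47 ± 0.26 (adjusted p = 0.0600). STMN1 passed in 6 of 12 settings, but without cells holding an MKI67 or TOP2A UMI it was at -0.024. CCR7 was at 0.98 ± 0.22 and higher in 4 of 4 libraries (adjusted p = 0.184). Over all libraries, and not only the 4 fitted, the cells with ITGAE or GZMK held more GZMB. The median was 16 UMIs with ITGAE alone, 34 with GZMK alone and 54 with both, against 12 in the GZMB CD8 cells. The part of GZMB in these values was not tested. Without library 12 no gene passed, without library 1 there were 5 higher and 19 lower, without library 2 there were 3 higher and 6 lower, and without library 13 there were 0 higher and 5 lower.

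Within the second set of barcodes, the GZMB CD8 cells of the 3 combined libraries could be set beside those of 3 healthy libraries, with 19, 324 and 84 cells in libraries 10, 12 and 13 against 9, 16 and 15 cells in libraries 8, 9 and 11. The summed counts of the healthy cells were 28994, 43696 and 62349 UMIs, at which 3 UMIs correspond to 103.5, 68.7 and 48.1 CPM, so only abundant genes are measured there, and combined library 10 was no deeper, at 40157 UMIs. Of 4688 genes with at least 30 UMIs over these cells, 498 were higher in every combined library than in every healthy library (10.6%) and 172 were lower in every one (3.67%). Library 12 alone gave 1248333 of the UMIs behind that minimum, so genes passed it mainly through the combined libraries, and 249 of the 498 higher genes were at 0 in at least 1 healthy library. With a minimum that weighted the 6 libraries equally, a mean of 100 CPM chosen after the data were seen, 151 of 1272 genes were higher (11.9%) and 73 lower (5.74%). In the other CD8 T cells of the same libraries the counts were 742 (15.8%) and 198 (4.22%). Of the 498 higher genes 160 were also higher in the other CD8 T cells, and of the 172 lower genes 48 were also lower there. No test was made, since the grouping is inferred.

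In the cytotoxic granule list, 5 of 15 measured genes were higher in every combined library and none was lower, in both kinds of CD8 T cell. Over all genes, 10.6% were higher in the GZMB CD8 cells and 15.8% in the other CD8 T cells. With the equally weighted minimum it was 3 of 8 in the GZMB CD8 cells, GNLY, NKG7 and SERPINB9. GNLY stood at 3013, 3098 and 2589 CPM in the GZMB CD8 cells of combined libraries 10, 12 and 13, against 966, 252 and 738 CPM in healthy libraries 8, 9 and 11. The lowest combined value was above the highest healthy value, beyond both counting intervals (2388 to 2802 CPM and 642 to 1396 CPM). NKG7 stood at 2092, 1186 and 2000 CPM in the combined libraries, against 621, 1121 and 769.9 CPM in the healthy ones. The counting intervals of libraries 12 and 9 overlapped (1126 to 1248 and 830 to 1483 CPM). SERPINB9, the granzyme B inhibitor that protects killer cells, stood at 423, 257 and 424 CPM against 34.5, 206 and 112 CPM in the same libraries. For SERPINB9 the counting interval of library 9 overlapped that of every combined library. PRF1 stood at 74.7, 103 and 76.3 CPM in the combined libraries, against 0, 68.7 and 48.1 CPM in the healthy ones, where it rests on 0 to 3 UMIs per library. The value of combined library 10 also rests on 3 PRF1 UMIs (15.4 to 218 CPM), an interval that holds the values of healthy libraries 9 and 11, so PRF1 was not separated at this depth. GZMA overlapped, at 74.7, 2532 and 479 CPM in the combined libraries and 897, 275 and 4009.7 CPM in the healthy ones. Library 10 held 3 GZMA UMIs in all, 1 cell held 65 of 113 in library 13, and 1 of 15 cells held 131 of 250 in library 11.

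The stress and immediate early list held 4 of 10 measured genes that were lower in every combined library, against 3.67% of all genes, and none that was higher. With the equally weighted minimum it was 3 of 9, FOS, FOSB and JUN, against 5.74% of all genes. The other gene, DUSP2, rested on 0, 15 and 6 UMIs in combined libraries 10, 12 and 13 and on 1, 4 and 4 in healthy libraries 8, 9 and 11. FOS, a rapidly induced subunit of the AP-1 transcription factor, stood at 1544, 1303 and 1246 CPM in the combined libraries, against 2621, 7049 and 6415 CPM in the healthy ones. JUN stood at 2889, 2692 and 2144 CPM against 4001, 3341 and 8067 CPM in the same libraries, and the counting interval of library 10 overlapped those of libraries 8 and 9. Outside that list, NR4A2, an orphan nuclear receptor induced by T cell receptor signals, stood at 99.6, 127 and 67.8 CPM against 345, 458 and 353 CPM. For NR4A2 the counting interval of library 10 overlapped those of libraries 8 and 11. In the other CD8 T cells 7 of the 10 stress genes were lower in every combined library, against 4.22% of all genes. RGS1, a regulator of chemokine receptor signals found in resident T cells, stood at 299, 287 and 373 CPM in the combined libraries, against 621, 1350 and 2294 CPM in the healthy ones. It rested on 12 UMIs in library 10 and 18 in library 8, and the counting interval of library 8 overlapped those of libraries 10 and 13. KLRB1, encoding CD161, stood at 74.7, 166 and 102 CPM in the combined libraries, against 310, 549 and 193 CPM in the healthy ones. It rested on 3 UMIs in library 10 and on 9 and 12 UMIs in libraries 8 and 11. The counting intervals of libraries 8 and 11 overlapped those of every combined library, so KLRB1 was separated only from library 9 at this depth.

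HOPX and SPINK2, which were higher in GZMB CD8 cells than in other CD8 T cells of the same libraries, had lower values in the GZMB CD8 cells of each combined library than in those of each healthy one. HOPX stood at 722, 695 and 792 CPM in combined libraries 10, 12 and 13, against 1104, 1007 and 1395 CPM in healthy libraries 8, 9 and 11, and SPINK2 at 872, 1145 and 678 CPM against 3104, 1167 and 2422 CPM. For HOPX the counting interval of library 9 (732 to 1352 CPM) overlapped those of every combined library. These were 484 to 1037, 649 to 742 and 683 to 914 CPM in libraries 10, 12 and 13. The HOPX interval of library 8 (755 to 1558 CPM) overlapped those of libraries 10 and 13. For SPINK2 the interval of library 9 (869 to 1535 CPM) overlapped those of libraries 10 (607 to 1212 CPM) and 12 (1086 to 1206 CPM). In the other CD8 T cells both genes overlapped between these groups. Among survival genes BAX, which promotes apoptosis, stood at 498, 369 and 436 CPM in the combined libraries, against 103.5, 137 and 128 CPM in the healthy ones, and the survival gene MCL1 at 274, 271 and 343 CPM against 345, 618 and 609.5 CPM. For MCL1 the counting interval of library 8 held the values of every combined library. MZB1, a plasma cell marker, stood at 24.9, 47.3 and 25.4 CPM in the combined libraries and was at 0 in the 3 healthy ones, where 3 UMIs would be 48.1 to 103.5 CPM.

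**Figure D5:**
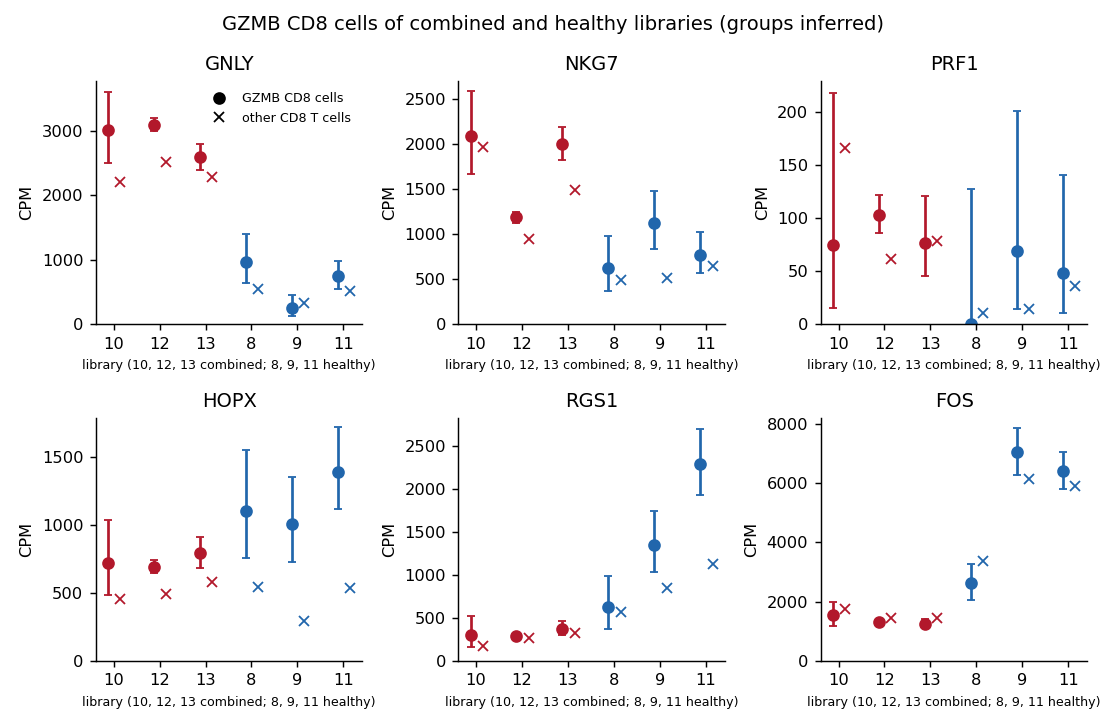
Summed levels (CPM) of 6 genes in the GZMB CD8 cells (circles with 95% exact Poisson intervals) and the other CD8 T cells (crosses) of combined libraries 10, 12 and 13 (left) and healthy libraries 8, 9 and 11 (right), groups inferred. GNLY stood at 2589 to 3098 CPM in the combined and 252 to 966 CPM in the healthy GZMB CD8 cells, and FOS at 1246 to 1544 CPM and 2621 to 7049 CPM.

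The GZMB CD8 cells of the first set of libraries are given side by side, with 97 and 15 cells in donor libraries 2 and 5 and 82 in host library 1. GZMA stood at 7864 and 23709.7 CPM in the donor libraries, against 793 CPM in the host library. PRF1 stood at 599 and 461 CPM in the donor libraries, against 182 CPM in the host library, and GNLY at 6458 and 4331 CPM against 2175 CPM. The donor values were thus higher for all 3 genes, and the same order was seen in the other CD8 T cells, where GZMA was 7319 and 34821 CPM in the donor libraries and 1337 CPM in the host library. SPINK2 went the other way, at 259 and 182 CPM in the donor libraries and 838 CPM in the host library. FOS stood at 484 and 307 CPM in the donor libraries, against 1328 CPM in the host library, and CD74, the MHC class II invariant chain, at 228 and 97.8 CPM against 509.6 CPM, of which 106 of 160 UMIs came from the cell rich in LYZ. With 1 host library there is no replicate of the host group, and differences between donor and host cells cannot be told apart from differences between these libraries.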

How the data were processed

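The deposited matrix of whole-number UMI counts per gene and barcode holds 57086 barcodes and 146797955 UMIs in 13 libraries, with 3128386 to 19655788 UMIs per library. Libraries were made with the 10x Genomics 3' kits v2 and v3, per the labels' protocols, and the submitters' processing notes name Cell Ranger 3.1.0 and Seurat 3.1. The genome build is not named in the sources read here. A second deposited matrix is on a natural log scale, ln(1 + the authors' corrected count). Only its list of kept barcodes was used, the lowest of which held 1502 UMIs. Doublets were not called here. Symbols came from the file (23811 of 34628 IDs) and a name table (695 more).

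Cells were gated on raw counts, and counts were summed per library and kind of cell. The 4 libraries where each kind reached 20 cells were fitted with edgeR 4.0.16 (R 4.3.3; TMM scaling, filterByExpr, glmQLFit, glmQLFTest) with library as a block, leaving 3 residual degrees of freedom. P-values were adjusted over all genes fitted other than the 11 genes of the rule, with a threshold of 0.05. The fold change is tested over compared cells. On simulated counts for the comparison with all other CD8 T cells (5978 genes), this fit recovered 79% of 2-fold and 98% of 4-fold changes, with 16 false calls. Far more genes were changed in the simulation than passed in the data, each by the same amount in every library. Those percentages therefore do not give the power of the real comparison. CPM are summed counts scaled to 1000000 UMIs of the same cells, and their intervals, like those of shares, cover counting error only. CPM of 3' counts follow the number of molecules and are not divided by gene length.

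The cells, the gene lists (310 names, 283 matched) and the tests were chosen with earlier results of these data known. Genes named are those of the lists, plus up to 15 per direction among genes that passed with 1 sign in every library, and others are said to be chosen afterwards. Alternatives were other scalings, filters, thresholds, depths and comparison cells, DESeq2 1.42.0, and each library left out.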

Additional observations from a re-analysis of the deposited data

Results flagged for a closer look

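The log2 ratio of STMN1, the microtubule regulator linked to division, between GZMB CD8 cells and other CD8 T cells with at least 3 GZMB UMIs was -3.17 in library 13, while the other 3 libraries lay between -0.98 and -0.88. It was picked out as a sample far from the rest of its group, at a gap of 0.954 of the whole range (Dixon's rule). Of 47 gene ratios examined this way over the 4 libraries, 1 was picked out, and chance picks out about 1 in 20. STMN1 stood at 55.1 CPM (13 UMIs) in the GZMB CD8 cells of library 13, against 576 CPM in the cells with ITGAE or GZMK.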

How the results depend on the processing

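Counts of genes that passed moved with most settings. Against all other CD8 T cells, 2 genes were higher and 1 lower, and RLE scaling, DESeq2 and a minimum of 50 cells gave the same 3 genes. There were 11 higher and 35 lower without a low-count filter, 0 and 0 with no replicate block for library, 8 and 12 with at least 10 cells of both kinds (8 libraries), 5 and 4 at a GZMB threshold of 1, and 11 and 6 at a threshold of 10. There were 28 and 4 against cells without ITGAE and GZMK, 36 and 10 against cells without GZMB, 0 and 0 with at least 3000 UMIs, 8 and 3 after thinning, and 0 and 0 without cells holding MKI67 or TOP2A. Leaving out each library gave 0 to 13 higher and 0 to 13 lower.

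Against cells with 0 to 2 GZMB UMIs, the 28 higher and 4 lower genes became 55 and 36 without a filter, 0 and 0 with no replicate block, 53 and 34 with at least 10 cells (7 libraries), 6 and 0 with at least 3000 UMIs, and 14 higher after thinning. DESeq2 gave an adjusted p for 262 of 3823 genes, among them 7 of the 32 that passed in edgeR, and called those 7 higher and 0 lower. Leaving out each library gave 6 to 51 higher and 0 to 12 lower. GZMA had a log2 value of at least 5.28 under the 12 alternatives and passed in 11, the exception being the fit with no replicate block.

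Against other cells with GZMB, the 0 higher and 2 lower genes became 15 and 53 without a filter, 6 and 8 with DESeq2, 0 lower with no replicate block, 2 and 12 with at least 10 cells, 0 lower with at least 3000 UMIs, 2 and 4 after thinning, and 1 and 5 without cells holding MKI67 or TOP2A. Leaving out each library gave 0 to 5 higher and 0 to 19 lower. The settings of these last 2 comparisons, and the removal of dividing cells, were added after seeing the data.

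Values against all other CD8 T cells that changed sign were GNLY at -0.053 with at least 10 cells, GZMA at 0.28 with a GZMB threshold of 10, and 3 genes against cells without ITGAE and GZMK: STMN1 at 0.10, GZMA at 5.70 and HMGB2 at 0.086. Against CD8 T cells with 0 GZMB UMIs, whatever their ITGAE or GZMK, GZMA was at 5.98 and HMGB2 at 0.13. The cause was not tested.

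The share of 17.8% was 22.3% after thinning, 24.1% at a GZMB threshold of 1, 10.2% at a threshold of 10, and 13.9 to 19.5% with each library left out. The median share of the combined libraries exceeded that of healthy libraries 8, 9 and 11 by 19.5 percentage points, by 25.7 after thinning, 27.2 at a threshold of 1 and 11.1 at 10, with no overlap under any of them. Depth limits healthy libraries 8, 9 and 11 and combined library 10 most, where 9 to 19 cells were summed. No pairing of animals was used, because the files tie no library to an animal.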

Other observations

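CGA, the glycoprotein hormone alpha chain gene, was found in few cells at high counts. In the GZMB CD8 cells it stood at 1594, 576 and 1339 CPM in combined libraries 10, 12 and 13, at 579 and 1188 CPM in donor libraries 2 and 5, at 277 CPM in host library 1, and at 0, 22.9 and 2213 CPM in healthy libraries 8, 9 and 11. In library 10, 62 of 64 CGA UMIs came from 1 of 19 cells, and in library 11, 138 came from 2 of 15 cells. Over all libraries 12.1% of GZMB CD8 cells and 9.88% of the other CD8 T cells held a CGA UMI.

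KIR2DL4, a killer cell receptor gene, was held by 3.32% of GZMB CD8 cells and 3.44% of the other CD8 T cells, at 13.3 and 14.2 CPM in the same order. Of the genes of egress from tissue, S1PR1 was at 0 CPM in the summed GZMB CD8 cells with 3 to 29 GZMB UMIs, 1.49 CPM in those with 30 or more, and 10.8 CPM in the cells with 0 GZMB UMIs that lacked ITGAE and GZMK. In that last bin S1PR1 was at 40.9 CPM in library 2 but at 2.93, 1.297 and 0 CPM in libraries 1, 12 and 13.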
